A study of Aedes albopictus with 4 samples.

Results

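The genes described here are 2 S28-type serine peptidase genes of Aedes albopictus, the Asian tiger mosquito, LOC109414356 (thymus-specific serine protease-like) and LOC115258728 (putative serine protease K12H4.7). They belong to 8 genes, of 25320 in the deposited table, whose product name holds thymus-specific serine protease (1 gene), serine protease K12H4.7 (7 genes) or serine protease F56F10 (0 genes). The pair was selected on its fold change of diquat against control, which was among the largest of the table. Its values in that comparison, with their standard errors and intervals, are therefore a description and carry no test. The other 6 copies were found by name alone and are tested. RNA of whole larvae in the fourth instar was sequenced at 72 h. The control group was untreated and the diquat group was given the herbicide diquat, a redox-cycling bipyridyl, at a concentration of 1/5 LC50, the LC50 being the median lethal concentration. Each group had 2 libraries. No source used here gives the strain, the sex, the number of larvae per library or whether the libraries came from separate rearings. The p-values therefore rest only on the spread between these libraries, which may be technical. In limma, the main test used, the spread of each gene is moderated toward that of other genes of like mean level.

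S28 peptidases are serine hydrolases that cut peptides beside proline from one of their ends. In mammals the family holds lysosomal Pro-X carboxypeptidase, which removes a residue that follows proline at the C-terminal end, dipeptidyl peptidase 2, which removes dipeptides from the N-terminal end, and thymus-specific serine protease, made by epithelial cells of the thymic cortex, where it helps to shape the peptides shown to developing T cells. Mosquitoes have no thymus, and K12H4.7 and F56F10 are names of Caenorhabditis elegans genes, so the product names record similarity of sequence and not a tested role in the mosquito. The table attached Gene Ontology terms to 2 of the 8 copies, LOC109406257 and LOC109411236, and both terms named serine-type exopeptidase activity.

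The control libraries held 34502559 and 39242657 counted reads and the diquat libraries 45243090 and 48383964. Values are normalized counts, that is, reads divided by 1 factor per library, and they are not divided by transcript length, so they are compared between libraries for each gene and not ranked between genes. A gene was tested if its 4 values averaged 10 or more, which left 17992 genes, the 8 copies among them. LOC109414356 passed that filter only through its diquat libraries, its control mean being 8.50 normalized counts. Fold changes were taken from log2(value + 1), and the constant 1 draws those of genes with low values toward 0, and their standard errors (SE) are the moderated ones of limma. RNA of whole animals does not tell more cells of a type from more RNA per cell.

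LOC109414356, annotated as thymus-specific serine protease-like, was at 2.39 and 14.6 normalized counts in the control libraries and at 225.4 and 209.1 in the diquat libraries. Both diquat libraries lay above both controls, as they did in 37.4% of tested genes. These values stand for 2 and 14 reads in the controls and 246 and 245 reads with diquat. The exact Poisson 95% interval covers counting error only. It ran from 0.242 to 7.22 reads for the first control and from 7.65 to 23.5 reads for the second. In normalized counts, which allow for depth, these intervals were 0.290 to 8.64 and 7.99 to 24.5, so they overlapped slightly. The group means were 8.50 ± 8.64 and 217.3 ± 11.5 normalized counts (SD, n = 2 per group), and the log2 fold change was 4.91 ± 0.46 (SE), the second largest rise among 17992 tested genes. In summed reads the diquat level was 24.3 times the control level (exact 95% interval 14.8 to 42.9, counting error only). The size of the difference depended on which control was used: against control replicate 1 alone the ratio was 90.7 (25.0 to 751.04), and against control replicate 2 alone it was 14.9 (8.77 to 27.4). The log2 fold change was 3.80 without control replicate 1 and 6.01 without control replicate 2.

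LOC115258728, annotated as putative serine protease K12H4.7, was at 21.5 and 13.6 normalized counts in the controls and at 184.2 and 217.6 with diquat, from 18, 13, 201 and 255 reads. Again the groups were apart, and here the 2 controls lay close to each other, their Poisson intervals of 10.7 to 28.4 and 6.92 to 22.2 reads overlapping widely. The means were 17.5 ± 5.63 and 200.9 ± 23.7 normalized counts (SD, n = 2 per group), with a log2 fold change of 3.47 ± 0.29 (SE), rank 12 of 17992. In summed reads the ratio was 11.7 (exact 95% interval 8.10 to 17.4, counting error only). It was 9.36 against the first control and 14.9 against the second. A log2 fold change of at least 3 was reached by 26 tested genes (0.145%). The next copy below the pair, LOC115269169, stood at 0.87 and rank 710.

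**Figure D1:**
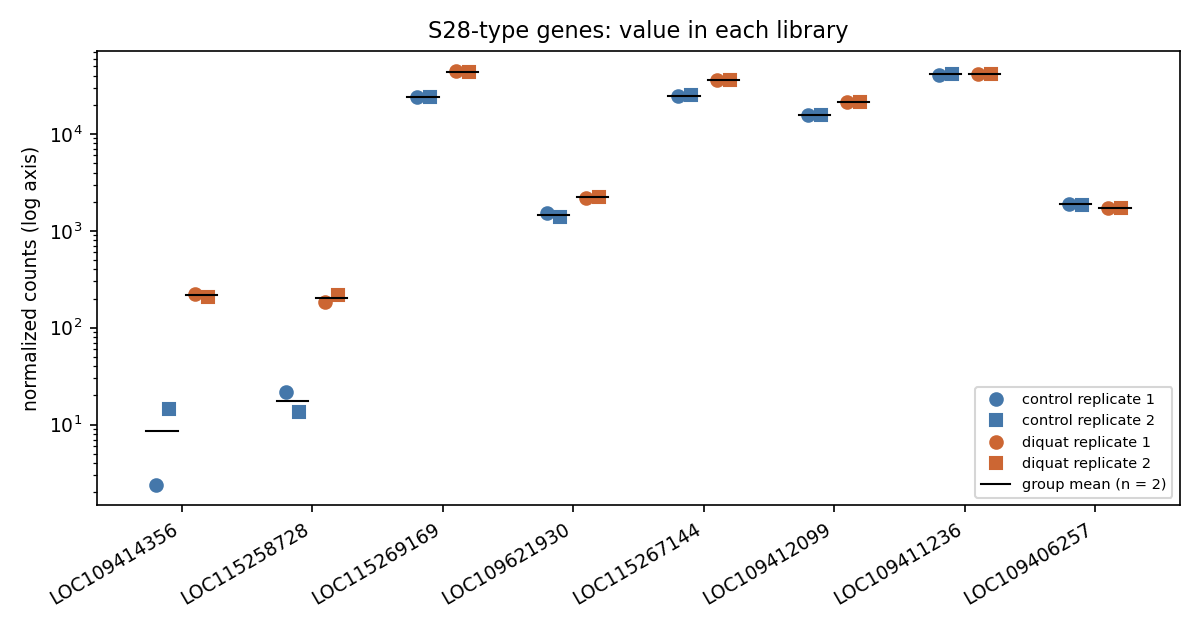
Normalized counts (log axis) of the 8 S28-type genes, ordered by fold change, with a point for each of the 2 control (blue) and 2 diquat (orange) libraries and a line at each group mean. The pair LOC109414356 and LOC115258728 goes from control values between 2.39 and 21.5 to diquat values between 184.2 and 225.4, while the other copies have values of 1391 or more in every library.

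The ratio of the values of LOC109414356 to LOC115258728 within a library, not corrected for transcript length and compared only between libraries, was 1.22 and 0.961 with diquat. In the controls that ratio was 1.08 in replicate 2 and 0.111 in replicate 1, where 2 of the pair's 20 reads lay in LOC109414356. The ratio thus overlapped between the groups. Within-library ratios do not depend on how the libraries were scaled.

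The pair are next to each other in the AalbF5 annotation, with 0 annotated genes between them and no overlap with another gene. Because no source used here names the build behind the counts, that annotation was used only for the order and overlap of genes.

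Of the 6 genes around the pair, 4 were tested, and their log2 fold changes lay between -0.74 and 0.46. Before the pair came LOC115253756, activating transcription factor of chaperone, an insect relative of the stress response factor ATF4, at 24546 and 23967 normalized counts in controls and 26087 and 26610 with diquat (log2 fold change 0.12 ± 0.02 SE, limma adjusted p = 6.46e-06). Farther out lay a long noncoding RNA, LOC115258899 (-0.39 ± 0.25, limma adjusted p = 0.217), and the gene of large ribosomal subunit protein uL30, LOC109424214 (0.46 ± 0.01, limma adjusted p = 3.83e-20). After the pair came LOC134286246, of no described product, and the pseudogene LOC134288775, both under the filter with 1.71 to 7.33 and 2.75 to 7.18 normalized counts over the 4 libraries. The third gene, LOC115258735, class A basic helix-loop-helix protein 15, fell by 0.74 ± 0.07 (limma adjusted p = 6.26e-10).

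**Figure D2:**
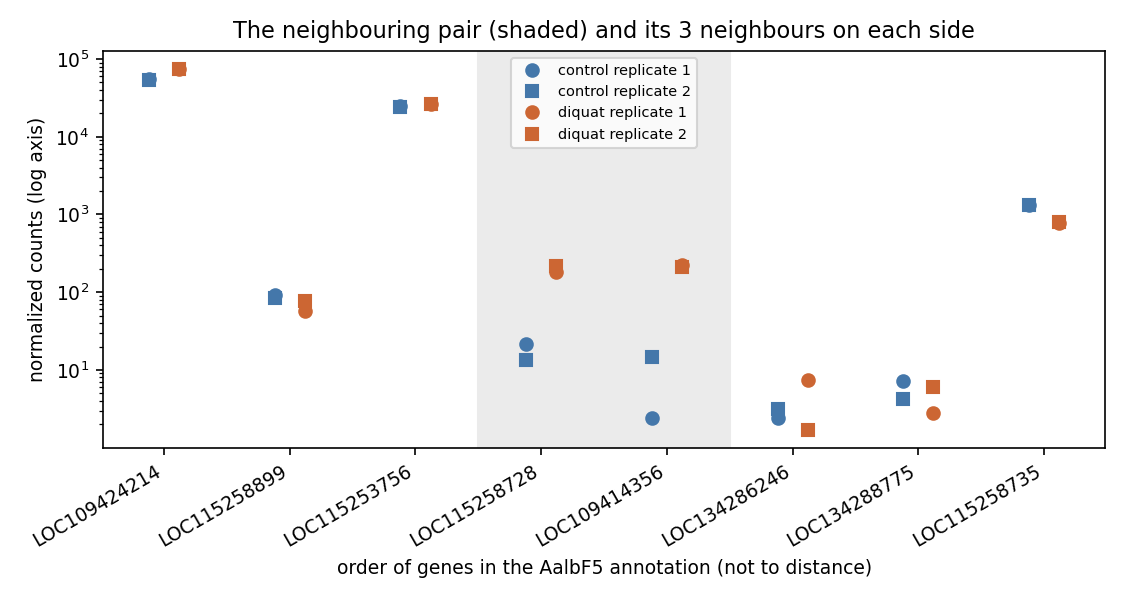
Normalized counts (log axis) in the 2 control (blue) and 2 diquat (orange) libraries for the neighbouring pair (shaded) and the 3 annotated genes on each side, in annotation order and not to distance. Control and diquat values of the pair lie well apart, whereas LOC115253756 beside it moves by a log2 fold change of 0.12 and LOC134286246 on the other side stays between 1.71 and 7.33.

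Of the 6 other copies, 4 rose, 1 fell and 1 did not pass (limma, adjusted p under 0.05 over all tested genes), beside 26.7% of tested genes that rose, 22.0% that fell and 48.8% that did either. None of the 6 changed 2-fold, a change called higher in 420 and lower in 507 of the 17992 tested genes. The median log2 fold change of the 6 was 0.49, against -0.00 over all tested genes. Of these copies, 4 form a run of neighbours on another chromosome than the pair, with 0 annotated genes between them. Together the run held 96.9% and 97.02% of the reads of the 8 copies in the controls and 97.1% and 97.03% with diquat.

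In the order of the run, LOC115267144 came first, at 24720 and 25155 normalized counts in the controls and 36438 and 36241 with diquat. Its log2 fold change was 0.54 ± 0.02 (SE, limma adjusted p = 1.08e-19). LOC109411236, next to it, was at 40995 and 41763 in the controls and 41766 and 41526 with diquat. Its groups overlapped and its log2 fold change of 0.01 ± 0.02 did not pass (limma adjusted p = 0.644), and under quantile normalization it was lower with diquat, at -0.12 (limma adjusted p = 1.5e-05, range over 15 alternatives up to 0.997). LOC109412099 was at 15865 and 15726 and then at 21427 and 21381 normalized counts, both diquat libraries above both controls, with a log2 fold change of 0.44 ± 0.02 (limma adjusted p = 4.18e-16). LOC115269169, the last, was at 24110 and 24230 in the controls and 44227 and 44035 with diquat. At 0.87 ± 0.02 (limma adjusted p = 1.27e-24) it had the largest fold change of the run, 1.83 times the control mean. The size of these p-values depends on limma's variance prior. With that prior held constant over genes, the limma adjusted p was 0.0149 for LOC115269169, 0.0186 for LOC115267144 and 0.0214 for LOC109412099.

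The make-up of the run shifted accordingly. LOC109411236 gave 38.8% and 39.1% of the run's reads in the controls and 29.03% and 29.002% with diquat, while LOC115269169 went from 22.8% and 22.7% to 30.7% and 30.8%. Reads of LOC115269169 for each read of LOC109411236 numbered 0.588 and 0.580 in the controls and 1.06 and 1.06 with diquat, a gap far wider than the spread within either group (SD 0.00562 and 0.00106). LOC115267144 for each read of LOC109411236 went from 0.603 and 0.602 to 0.872 and 0.873, and LOC109412099 from 0.387 and 0.377 to 0.513 and 0.515. With 2 libraries against 2, the smallest two-sided p of an exact permutation test is 0.333, which each of these 3 ratios gave. The share of LOC109412099 in the run overlapped between the groups, at 14.7% to 15.01% in controls and 14.9% with diquat. The sources used here do not say how reads that fit several copies were counted, so values of neighbouring copies may share reads.

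**Figure D3:**
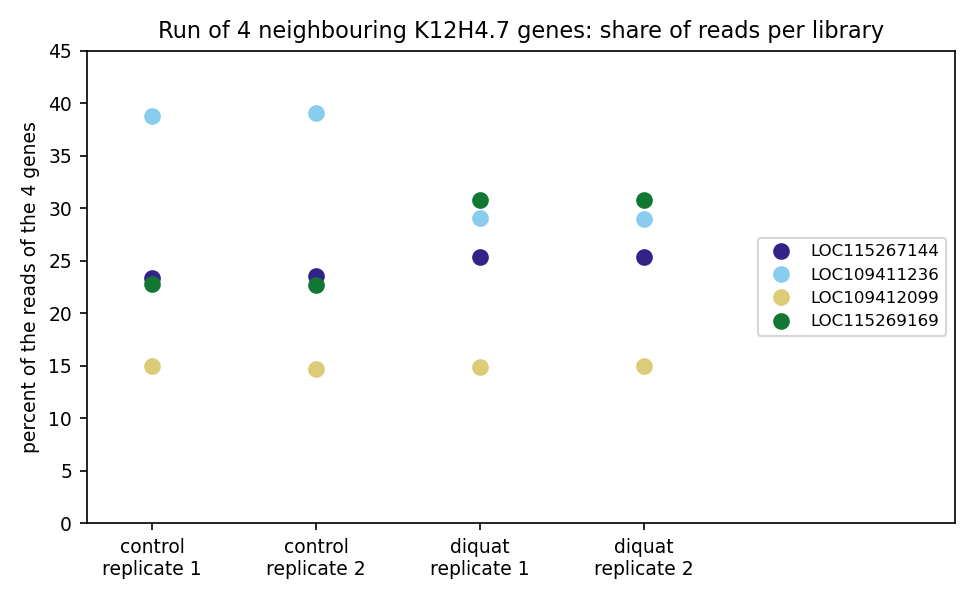
Percent of the reads of the run of 4 neighbouring K12H4.7 genes that fell in each gene, per library, with the axis from 0. LOC115269169 goes from 22.8% and 22.7% in the controls to 30.7% and 30.8% with diquat. LOC109411236 goes from 38.8% and 39.1% to 29.03% and 29.002%. Shares are not corrected for transcript length.

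The remaining copies stand outside both runs. LOC109621930 was at 1511 and 1391 normalized counts in the controls and 2192 and 2251 with diquat (log2 fold change 0.62 ± 0.06 SE, limma adjusted p = 4.7e-10). Its limma adjusted p was 0.0210 with the variance prior held constant. It overlaps LOC109417993, cilia- and flagella-associated protein 52, which had 13.2% of its value and a log2 fold change of 0.63 ± 0.14 (limma adjusted p = 0.000641). LOC109406257 was the copy that fell, from 1898 and 1859 to 1735 and 1704 normalized counts (log2 fold change -0.13 ± 0.05 SE, limma adjusted p = 0.0461). That call was lost without any 1 of the 4 libraries (limma adjusted p from 0.0534 to 0.192) and under DESeq2 on the reads (adjusted p = 0.0913), and its adjusted p ranged from 0.0207 to 0.192 over 15 alternatives. It overlaps LOC109406256, chromatin-remodeling ATPase INO80, whose larger value also fell (-0.19 ± 0.04, limma adjusted p = 0.000257), and reads of the overlapping genes were not separated here.

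The 8 copies took 0.264% and 0.269% of all counted reads in the controls and 0.357% in each diquat library. The pair, although first in fold change, made up a small part of that: 0.0219% and 0.0256% of the copies' reads in the controls and 0.276% and 0.289% with diquat. Of the net rise of 38242 normalized counts over the 8 copies, LOC115269169 gave 52.2%, LOC115267144 29.8% and LOC109412099 14.7%. LOC109621930 gave 2.01%, the pair 1.03%, LOC109411236 0.70% and LOC109406257 -0.42%. These shares were not corrected for transcript length.

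**Figure D4:**
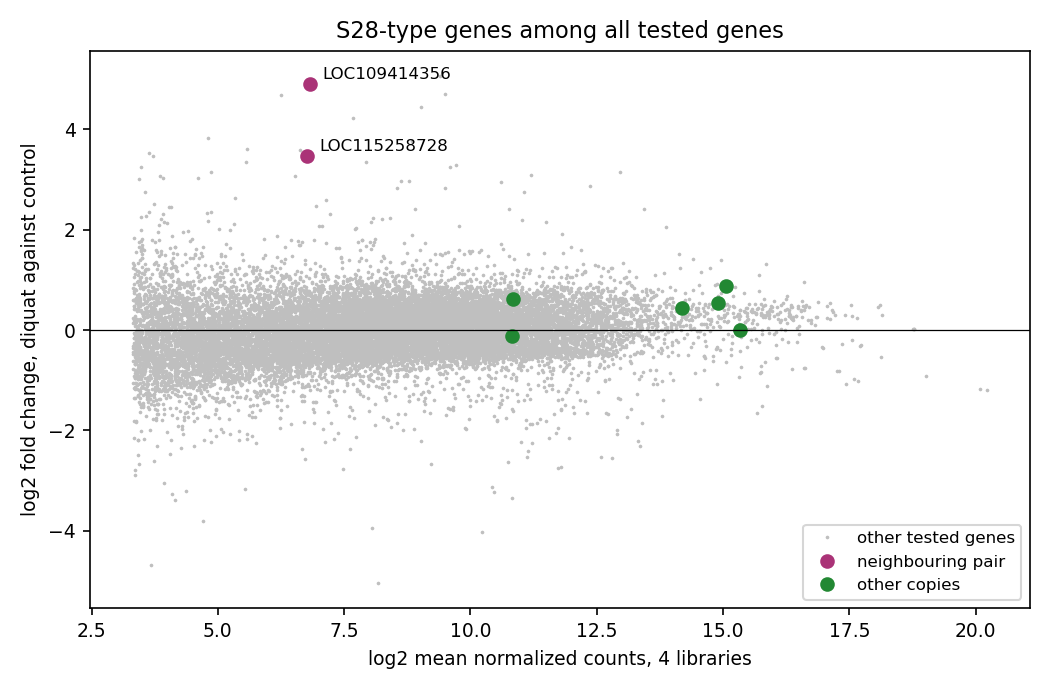
Log2 fold change of diquat against control on the vertical axis against log2 mean normalized counts over the 4 libraries, for the 17992 tested genes (grey), the neighbouring pair (purple) and the other 6 copies (green). The pair stands at 4.91 and 3.47 near the top, and the other copies lie between -0.13 and 0.87 at higher mean counts.

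Other genes named for proline-directed peptidases, 17 of 17 tested, rose in 10 and fell in 5 (1 with a constant variance prior), and their median log2 fold change was 0.37. Beside this list and the lists below stand 26.7% higher and 22.0% lower over all tested genes, with a median of -0.00. Lysosomal Pro-X carboxypeptidase (LOC109431131), itself of the S28 family, was at 1999 and 2000 normalized counts in controls and 2513 and 2665 with diquat (log2 fold change 0.37 ± 0.05 SE, limma adjusted p = 3.56e-07). The largest change on the list was in a venom dipeptidyl peptidase 4-like gene (LOC109428640), named for an enzyme that removes N-terminal dipeptides after proline, from 96.9 and 91.8 to 417.8 and 473.7 normalized counts (2.23 ± 0.15, limma adjusted p = 2.17e-12). A venom dipeptidyl peptidase 4 gene, LOC109420994, rose by 0.59 ± 0.04 (limma adjusted p = 2.8e-12), and both of these overlap LOC109429299 in the annotation. The aminopeptidase gene LOC109410346 (xaa-Pro aminopeptidase ApepP), which frees the residue before a proline, rose by 0.63 ± 0.04 (limma adjusted p = 4.37e-12). The list also holds LOC109426481, an N-terminal methyltransferase that entered by its name and cuts no peptide (0.43 ± 0.09, limma adjusted p = 0.000162). It is counted among the 17 genes and among the 10 that rose.

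Serine carboxypeptidases of family S10, which also free C-terminal residues, rose in 4 of 4 tested genes of 5. Their median log2 fold change was 0.28, and 3 were called higher with a constant variance prior. The 3 of smallest p were venom serine carboxypeptidase LOC109622423 at 0.35 ± 0.04 and the retinoid-inducible serine carboxypeptidase genes LOC109623333 at 0.27 ± 0.04 and LOC109424680 at 0.22 ± 0.03 (SE, limma adjusted p of 4.49e-08, 4.92e-07 and 2.4e-06). Cathepsins and other lysosomal proteases went both ways, with 4 higher (2 with a constant variance prior) and 2 lower of 10 tested and a median of 0.06. Cathepsin L (LOC134291863) rose by 0.40 and cathepsin B (LOC109412731) by 0.32 on the log2 scale, while a procathepsin L-like gene (LOC109415890) fell by 0.85 (limma adjusted p of 5.03e-13, 7.36e-08 and 2.41e-14), and each of these 3 overlaps another annotated gene.

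Among 96 tested genes named for trypsins, chymotrypsins, collagenases and brachyurins, endopeptidases of which many serve digestion in the larval gut, 36 rose, 14 of them at least 2-fold, and 26 fell, 7 of them at least 2-fold, with a median of 0.01. The background of 26.7% higher and 22.0% lower applies here to calls of any size. Called changes of at least 2-fold numbered 420 higher and 507 lower over all 17992 tested genes. The largest rise was in trypsin-1 LOC109430115, from 503.5 and 488.3 to 4085 and 4352 normalized counts (log2 fold change 3.09 ± 0.06 SE, limma adjusted p = 2.73e-24). The 3 of smallest p fell: collagenase LOC109398533 from 79761 and 78444 to 25206 and 25016 normalized counts (log2 fold change -1.66 ± 0.01 SE, limma adjusted p = 3.76e-31), brachyurin-like LOC109431992 by 0.85 and trypsin alpha-3-like LOC115261111 by 0.94. The first of these overlaps LOC115253617, and the second overlaps LOC109409739.

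The profiles most like those of the pair were found by the root mean square difference over the 4 libraries between log2(value + 1) profiles, each less its own control mean, among 10519 described genes. For LOC109414356 the nearest was serine protease persephone (LOC115256661, difference 0.62), at 13.2 and 29.2 normalized counts in the controls and 412.3 and 359.3 with diquat. Persephone is known in flies as a protease upstream of the Toll receptor. Next came peritrophin-1 (LOC115257508, 0.67), a chitin-binding protein of the gut lining, and LOC115256642, nose resistant to fluoxetine protein 6-like (0.86). Phenoloxidase-activating factor 2-like (LOC109416724, 1.03) and synaptic vesicle glycoprotein 2B-like (LOC109424813, 1.04) completed the 5.

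For LOC115258728 the nearest profile was that of CLIP domain-containing serine protease B8-like LOC134290920 (difference 0.14), at 10.8 and 5.22 normalized counts in the controls and 83.4 and 89.6 with diquat. CLIP-domain proteases act in the protease cascades of melanization and Toll signalling in insects. Ficolin-3-like (LOC109421141, 0.18) followed, named for a sugar-binding lectin, then vanin-like protein 1 (LOC109421937, 0.34), trypsin-1 (LOC109430115, 0.35) and a further CLIP domain-containing serine protease B8-like gene (LOC134286542, 0.37). LOC134290920, LOC109421141 and LOC134286542 had control means of 7.99, 6.87 and 5.00 normalized counts, and passed the filter only through their diquat libraries. The levels of the 5 genes spanned from 4.17 to 14464 normalized counts, since the measure uses only the shape of the profile. With 4 libraries that shape is the size of the rise together with the gap between libraries of a group. In LOC109414356 the controls held 2 and 14 reads. Its nearest profiles and its distance from LOC115258728 therefore depend on that gap as well. The pair was selected on its rise, so likeness to it is a description. The 2 genes of the pair were 1.43 apart, LOC115258728 being number 10 in likeness to LOC109414356 and LOC109414356 number 89 in likeness to LOC115258728.

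Markers of tissues of the whole larva were detected in each library, here as summed shares of all counted reads. Larval cuticle genes, 31 of 35 with a mean of at least 10, took 0.190% and 0.191% in the controls and 0.102% and 0.101% with diquat, and 23 of them fell and 1 rose. Muscle genes, 18 of 20, took 1.09% and 1.10% and then 1.44% and 1.44%, with 7 higher and 6 lower. Midgut genes, 81 of 115 with 5 at 0, took 1.15% and 1.15% and then 1.07% and 1.06%, while by gene 35 were higher and 20 lower, with a median log2 fold change of 0.05. Fat body genes, 13 of 13, took 2.72% and 2.75% and then 2.43% and 2.45%, with 5 higher and 5 lower. Nervous system genes, 11 of 12, took 0.0620% and 0.0647% and then 0.0505% and 0.0509%, with 0 higher and 9 lower, and haemocyte genes, 9 of 9, took 0.0503% and 0.0521% and then 0.0554% and 0.0550%, with 3 higher and 3 lower. Yolk and eggshell genes of adult females, 10 of 17, took between 0.00652% and 0.00696%, with 2 higher and 1 lower. Over all tested genes 26.7% were called higher and 22.0% lower. The part of these shifts in the changes of the S28 genes was not tested.

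**Figure D5:**
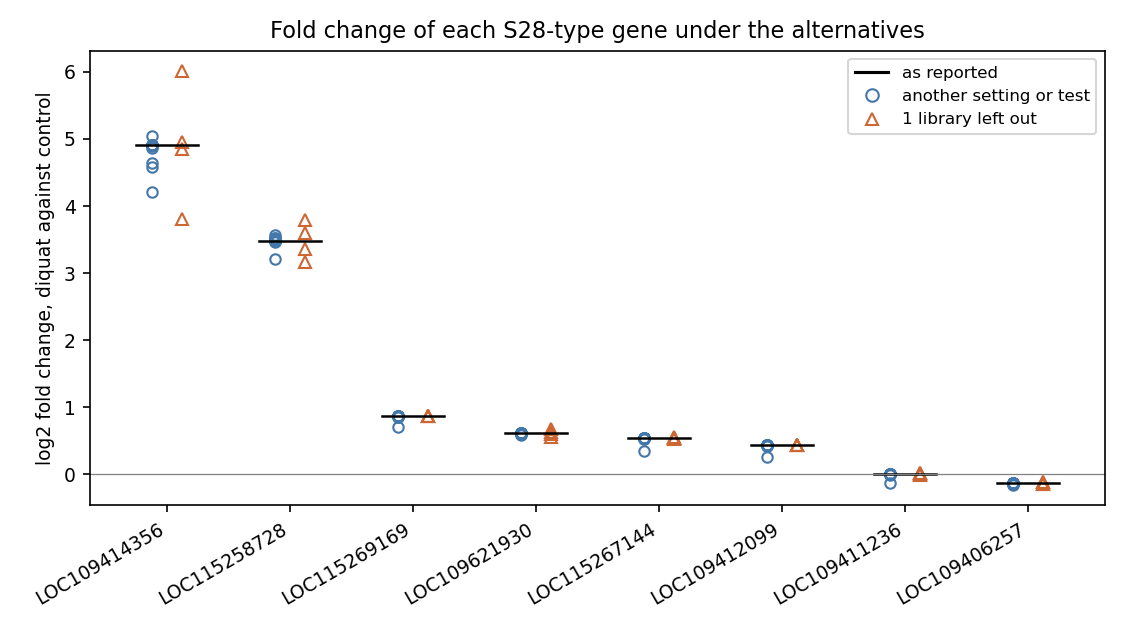
Log2 fold change of diquat against control for each of the 8 S28-type genes, as reported (line), under another setting or test (circles) and with 1 library left out (triangles). LOC109414356 spans 3.80 to 6.01 and LOC115258728 spans 3.16 to 3.79, LOC109411236 falls on both sides of 0, and the other genes keep their direction.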

How the data were processed

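Library preparation followed the NEBNext Ultra II RNA kit after Zymo Direct-zol extraction, per the labels' protocols. STAR 2.7.10a, fastp 0.12.4, bcl2fastq and DRAGEN are named in the submitters' processing notes. No counter, strand setting, genome build or annotation is named by the sources used here. Per gene and library, the deposited table gives a normalized signal. The authors' values were whole multiples of the smallest value above 0 of their library (100% of values, tolerance 1e-06 relative), so whole reads were recovered by division. A further median-ratio scaling gave the same factor for each library to 8 decimals.

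Diquat was compared with control by limma 3.58.1 in R 4.3.3 (lmFit, then eBayes with its trend option) on log2(value + 1), with two-sided p-values adjusted by Benjamini-Hochberg over 17992 genes with a mean of at least 10. On the recovered reads edgeR 4.0.16 (quasi-likelihood) called 4782 genes higher and 4047 lower, and DESeq2 1.42.0 called 3955 and 3288, against 4809 and 3963 in limma. Only the limma fit was tried on simulated data, as a check of the code, and no power or rate of false calls is claimed from it. All 25320 gene identifiers were found in the AalbF5 reference table. Intervals used scipy 1.17.1 and figures matplotlib 3.10.9.

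The pair and the lists were chosen with earlier results of these data known. Named genes were every copy, up to 3 genes of smallest p per list with a mean of at least 50, 3 neighbours on each side of the pair and the 5 nearest profiles. LOC109431131 and LOC109426481 were named for what they are, after their values were seen.

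Replicates differed by more than sampling noise (chi-square per degree of freedom 2.62 in controls and 2.63 with diquat). Same-numbered libraries did not deviate together (r = 0.0118 over tested genes), so replicate numbers were not taken as pairs.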

Additional observations from a re-analysis of the deposited data

How the results depend on the processing

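The counts of called genes (all genes, the S28 copies and the 4 lists) and the fold changes of the 8 S28 genes were recomputed under 15 alternatives, and other values were not: pseudocounts of 0.5 and 5, no filter or a mean of at least 50, scaling by quantiles, by equal totals or by median ratio, a variance prior held constant, the replicate block, each library left out, edgeR and DESeq2. In each of them 4 of the 6 other copies were called higher. The count called lower, 1 as reported, was 0 without a filter, under the constant prior and in DESeq2, 2 under quantile normalization, and 0 to 0 with a library left out. LOC109411236 turned to -8.9e-05 with equal totals, -0.12 under quantile normalization (limma adjusted p = 1.5e-05) and -0.0022 in DESeq2, and ranged from -0.0040 to 0.023 with a library left out. Under the constant prior 1 proline-directed gene was called lower, and 2 cathepsins and 3 S10 genes were called higher. With the replicate block 4935 genes were higher and 4121 lower, and no copy of the S28 genes changed its call. Over all 17992 tested genes the constant prior called 3260 higher and 2739 lower, the fewest of the alternatives. The shares of 26.7% and 22.0% given beside the copies and lists are those of the fit as reported. The fold change of LOC109414356 was 4.21 at a pseudocount of 5 and 5.04 at 0.5. It rests on 16 control reads in all, and which of the 2 controls is nearer the usual level cannot be told from 2 libraries.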
